A study of Homo sapiens with 9 samples.

Results

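The genes described here handle zinc: the SLC30A family, the SLC39A family, the metallothioneins of the MT1 and MT2A type, and MTF1. They were chosen by gene symbol from the 60649 genes of the count table, which gave 36 members. Of these, 10 were SLC30A genes, 14 were SLC39A genes, 11 were metallothioneins and 1 was MTF1. The cells were MDA-MB-231, an established human triple-negative breast cancer line, labelled as proliferating mammary epithelial cells and sequenced as 9 mRNA libraries in 3 groups of 3 replicates. The groups carried the control vector pLKO-GFP, shAHR#2 or shAHR#3, where the last 2 are independent short hairpin RNAs against AHR, the aryl hydrocarbon receptor. All groups went through lentiviral transduction and puromycin selection, and the surviving cells of each transduction were pooled, so no group is 1 clone. The methods of the study number the hairpins differently from the labels, and the numbers could not be matched here. The comparisons ask how depletion of AHR changed these genes, and whether the 2 hairpins did so alike. Nothing in the labels says that replicates were separate cultures, so p-values measure only the spread between these libraries.

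Zinc is required by a large part of the proteome, and free zinc is kept very low inside cells. SLC39A (ZIP) transporters bring zinc into the cytosol from outside or from organelles, SLC30A (ZnT) transporters move it out of the cytosol, and metallothioneins are small cysteine-rich proteins that bind zinc, copper and cadmium. MTF1 is the zinc-sensing transcription factor that binds metal response elements in the promoters of metallothionein genes and of SLC30A1. Metallothioneins are also well known as genes that rise with cadmium, glucocorticoids and oxidative stress. AHR, with its partner ARNT, binds a different core, and its best known targets are CYP1A1 and CYP1B1.

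AHR was counted at 2022, 2368 and 2385 reads in the pLKO-GFP libraries, at 792, 629 and 662 under shAHR#2, and at 900, 1019 and 912 under shAHR#3, so no shAHR library overlapped the control libraries. Total counts per library ranged from 15991396 to 20374460. VIM, a mesenchymal marker of this line, had 46311 to 71550 reads in every library, while PGR had none and ESR1 had at most 4. EPCAM had 90 to 135 reads and CDH1 14 to 94, far below KRT18 with 4694 to 7985. ERBB2, on the same list of genes low in this line, had 974 to 1550. CDH1 rose with both constructs (log2 changes of 1.00 and 2.19, adjusted p = 0.00165 and 2.47e-10), and CD44, another marker of the line, fell but kept 10673 reads or more (-0.23 and -0.49, adjusted p = 3.24e-10 and 7.02e-19). Several markers of other cell types moved with the constructs. Of 5 leukocyte markers, PTPRC and LYZ passed the test as higher with each construct, and their summed level was 1.20 to 1.47 CPM in the control, 4.37 to 6.06 under shAHR#2 and 3.42 to 3.79 under shAHR#3, with CD3E at 0 in all libraries. Of 3 endothelial markers, PECAM1 was higher with each construct, and the sum went from 2.15 to 2.71 CPM in the control to 10.4 to 12.7 and 12.04 to 13.3. Of 5 fibroblast markers, 1 was higher and 2 were lower under shAHR#2 (summed level 14.4 to 15.8 CPM, against 14.9 to 17.9 in the control), and 3 were higher and 1 was lower under shAHR#3 (29.4 to 32.5 CPM), while DCN had at most 1 read. PTPRC and LYZ had enough reads to be tested only through the shAHR libraries. Among the fibroblast markers, LUM was tested only through the shAHR#3 libraries and COL1A2 only through those of the control. The part of the markers of other cell types in the results below was not tested. CPM here are read counts scaled to a common library size, with TMM factors.

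Of the 36 members, 25 had enough reads to be tested with edgeR's quasi-likelihood test. The other 11 were near or at 0. SLC30A2, SLC30A10, SLC39A12, MT1H and MT1HL1 had no read in any library, which allows up to 0.146 to 0.193 CPM depending on the library (3 counts). SLC39A2, SLC39A5, MT1B, MT1G, MT1L and MT1M had at most 4 reads in any library. These limits cover counting error only.

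Per length, MT2A stood far above the other members. In the control it was at 118 FPKM ± 8.39 (SD, n = 3), where FPKM is the CPM per kilobase of the gene's merged exons. SLC30A1 followed at 27.1 ± 0.995 FPKM, then SLC39A6 at 26.9 ± 0.811 and MT1E at 26.8 ± 0.902, and these 3 did not differ beyond their spread. SLC39A10 (23.0 ± 0.943), SLC39A9 (21.5 ± 0.477) and SLC39A14 (20.5 ± 0.830) came next. The means of SLC39A10 and SLC39A9, and of SLC39A9 and SLC39A14, were closer than the sum of their SDs. SLC39A7 (17.0 ± 0.242), SLC30A9 (15.1 ± 0.200) and SLC30A5 (14.4 ± 0.543) followed, and the last 2 means were also closer than the sum of their SDs. At the other end, SLC39A4 was at 0.599 ± 0.112, MT1F at 0.236 ± 0.0866 and SLC30A3 at 0.0967 ± 0.0181. SLC30A8 was the lowest tested member of the control, at 0.00300 ± 0.00519. Merged exons can take in introns of some transcripts, and those of MT2A cover its whole span of 914 bases. The order per length, and the closeness of MT1E to SLC30A1 and SLC39A6, therefore also depend on the annotation.

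**Figure D1:**
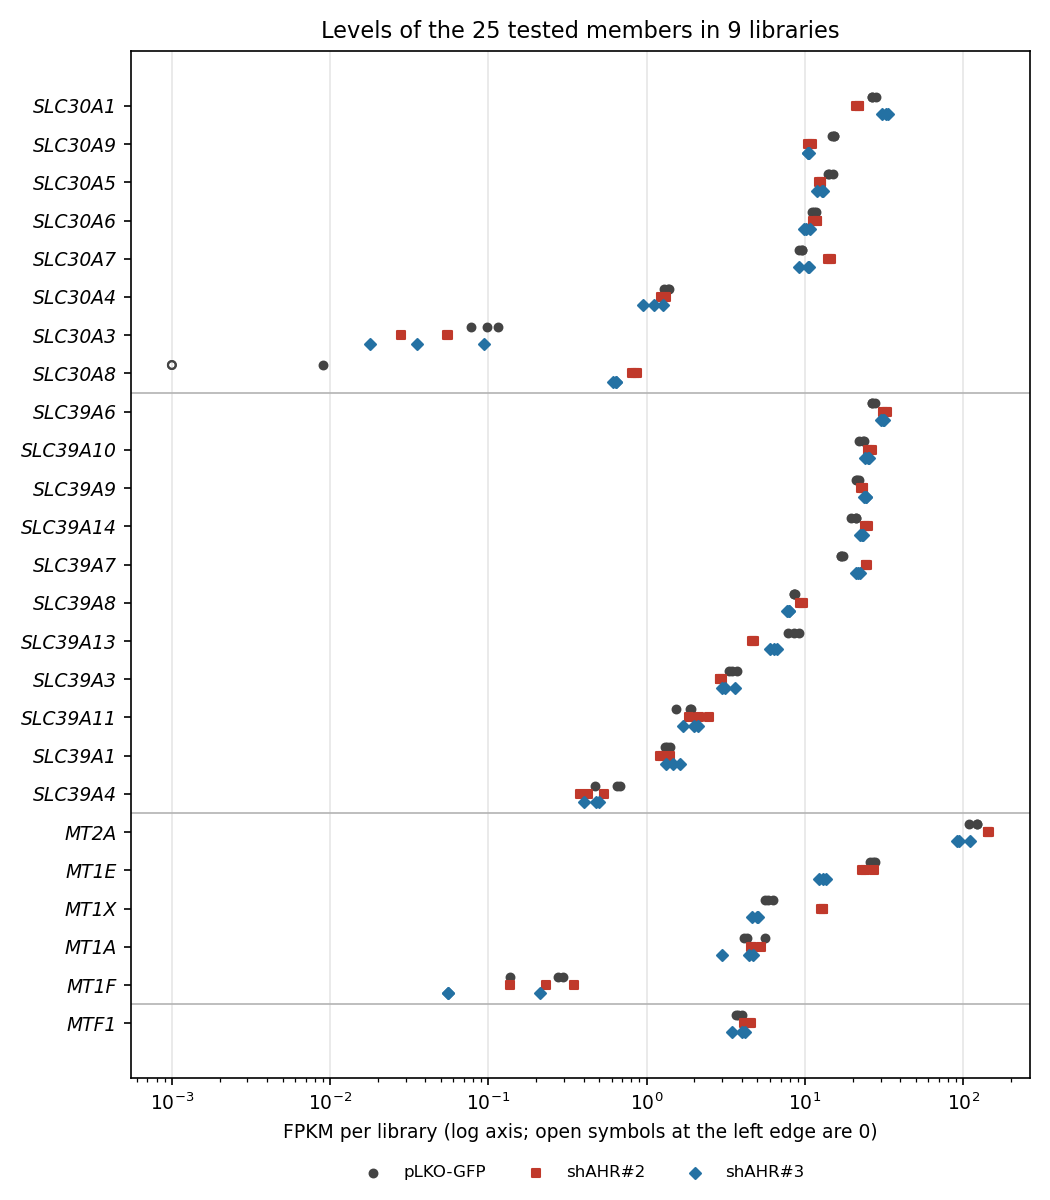
Level per length of the 25 tested members in each of the 9 libraries (FPKM, log axis), grouped into SLC30A genes, SLC39A genes, metallothioneins and MTF1 and ordered within each by the control mean. Most members lie close together in the 3 groups, whereas SLC30A8 has 2 control libraries at 0 (open symbols) and a mean of 0.842 FPKM under shAHR#2 and 0.629 under shAHR#3.

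With shAHR#2 against pLKO-GFP, 17 of the 25 tested members passed an adjusted p of 0.05, 12 as higher and 5 as lower. Among all 14274 genes tested, 65.8% passed, 32.6% as higher and 33.2% as lower. With shAHR#3, 16 members passed, 7 as higher and 9 as lower, beside 54.4% of all genes (26.9% higher and 27.5% lower). The shares of members called, 68.0% and 64.0%, were thus near those of all genes. Compared directly, 12 members passed for shAHR#3 against shAHR#2, of which 2 were higher and 10 lower under shAHR#3, where 42.3% of all genes differed, 21.9% as higher and 20.4% as lower. The median log2 fold change of the tested members was 0.04 under shAHR#2 and -0.13 under shAHR#3, and that of all genes was -0.0032 and -6.9e-05. Both constructs were compared with the same control libraries. In bulk RNA, a change in the level per cell and a change in the share of cells that express a gene cannot be told apart.

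**Figure D2:**
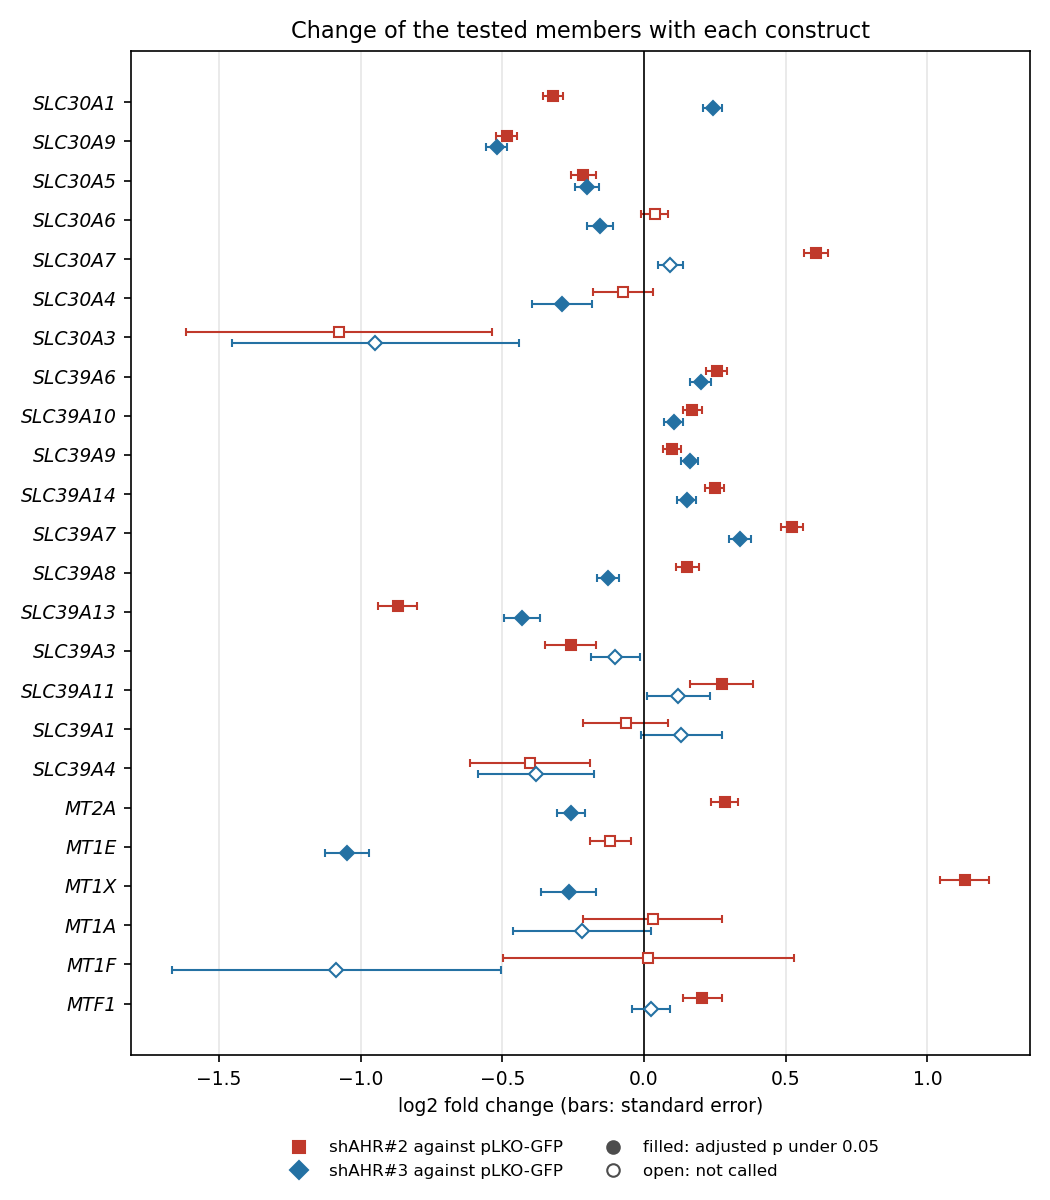
Log2 fold change with standard error of 24 tested members under shAHR#2 (squares) and shAHR#3 (diamonds) against pLKO-GFP, filled where the adjusted p was under 0.05. SLC30A8 is left out because its control was near 0. MT1X, MT2A, SLC39A8 and SLC30A1 have filled symbols on opposite sides of 0, and SLC39A13, SLC39A7 and SLC30A9 have filled symbols on the same side.

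Of the 5 metallothioneins tested, 2 rose and none fell under shAHR#2, and none rose and 3 fell under shAHR#3. These are 40.0% and 60.0% called, beside the 65.8% and 54.4% of all genes. The summed level of all 11 was 140, 153 and 151 CPM in the control libraries, 180, 181 and 184 under shAHR#2, and 109, 107 and 126 under shAHR#3, and the 3 groups did not overlap. The log2 ratio of the group means was 0.29 under shAHR#2 and -0.38 under shAHR#3, with an SD between libraries of 0.05 and 0.10 on that scale, pooled over the control and the construct. The ratios carry no test. MT2A made up most of the sum, and without it the ratios were 0.32 and -0.76. The members are so alike in sequence that the counting may have split reads between them or left some out. The sum is less open to splitting than the single genes, but a loss of reads would lower it too. Another annotated gene on the same strand shares 321 of the 1727 exon bases of MT1X, and the effect of this was not tested.

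MT2A (ENSG00000125148.7, chromosome 16, 56608584 to 56609497), the most abundant human metallothionein in many cells, was at 98.7, 112 and 112 CPM in the control. It was at 130, 133 and 130 CPM under shAHR#2, above every control library, and at 85.5, 83.2 and 101 under shAHR#3, where replicate 3 lay within the control range. Its log2 fold changes were 0.28 (standard error 0.05, adjusted p = 3.32e-06) and -0.26 (standard error 0.05, adjusted p = 3.41e-05). MT1X (chromosome 16, 56682470 to 56684196) was at 10.8, 9.59 and 10.0 CPM in the control and rose to 22.4, 21.8 and 22.5 under shAHR#2, with a log2 fold change of 1.13 (standard error 0.09, adjusted p = 2.59e-14). With shAHR#3 it was at 8.59, 8.70 and 8.01 CPM, below all control libraries, with a log2 fold change of -0.27 (adjusted p = 0.0200). That call was lost without pLKO-GFP replicate 1 (-0.22, adjusted p = 0.0920) or shAHR#3 replicate 3 (-0.23, adjusted p = 0.0759), and over all 15 alternatives the adjusted p ran from 0.0180 to 0.0920.

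MT1E (chromosome 16, 56625475 to 56627112) fell under shAHR#3. It was at 28.5, 28.9 and 27.1 CPM in the control and at 12.8, 13.7 and 14.4 under shAHR#3, so the groups were well apart, with a log2 fold change of -1.05 (standard error 0.08, adjusted p = 2.23e-14). With shAHR#2 it was at 25.2, 24.1 and 28.5 CPM, overlapping the control, with a log2 fold change of -0.12 that did not pass (adjusted p = 0.145). Without shAHR#2 replicate 3 this became -0.19 (adjusted p = 0.0363), and the adjusted p ran from 0.0363 to 0.470 over 15 alternatives. MT1A was at 1.18 to 2.23 CPM in all libraries and did not pass with either construct (adjusted p = 0.919 and 0.471). MT1F had 2 to 11 reads per library and did not pass (adjusted p = 0.981 and 0.113). Without shAHR#3 replicate 3 its log2 fold change with that construct was -2.01 (adjusted p = 0.0253, range over 12 alternatives 0.0253 to 0.320), and the difference between the constructs was -2.03 (adjusted p = 0.0339), beside -1.10 (adjusted p = 0.139) with all libraries.

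The genes thus shared the metallothionein pool differently in each group. MT2A made up 72.5% ± 1.86 of all metallothionein reads in the control, 72.2% ± 1.18 under shAHR#2 and 78.9% ± 1.32 under shAHR#3 (SD, n = 3 each). MT1E was 19.0% ± 1.21 of the pool in the control, 14.3% ± 1.13 under shAHR#2 and 11.98% ± 0.729 under shAHR#3, with no overlap between the control and either construct. MT1X was 6.88% ± 0.764, 12.2% ± 0.185 and 7.46% ± 0.969, so that its share was higher under shAHR#2 in every library. These shares carry no test.

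Between the constructs, all 3 of these genes were lower under shAHR#3 than under shAHR#2. The log2 differences were -1.40 for MT1X (standard error 0.09, adjusted p = 4.91e-16), -0.93 for MT1E (standard error 0.08, adjusted p = 2.17e-12) and -0.54 for MT2A (standard error 0.05, adjusted p = 1.20e-11). MTF1 moved little. It was at 31.96, 30.3 and 29.3 CPM in the control, 35.9, 32.9 and 36.6 under shAHR#2 and 32.1, 33.4 and 27.7 under shAHR#3, log2 fold changes of 0.21 (standard error 0.07, adjusted p = 0.00748) and 0.03 (adjusted p = 0.768). Its difference between the constructs, -0.18 (adjusted p = 0.0274), did not pass without shAHR#2 replicate 1 (-0.16, adjusted p = 0.1004), shAHR#2 replicate 3 (-0.15, adjusted p = 0.118) or shAHR#3 replicate 3 (-0.10, adjusted p = 0.229), and the adjusted p ran from 0.00928 to 0.229 over 15 alternatives.

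**Figure D3:**
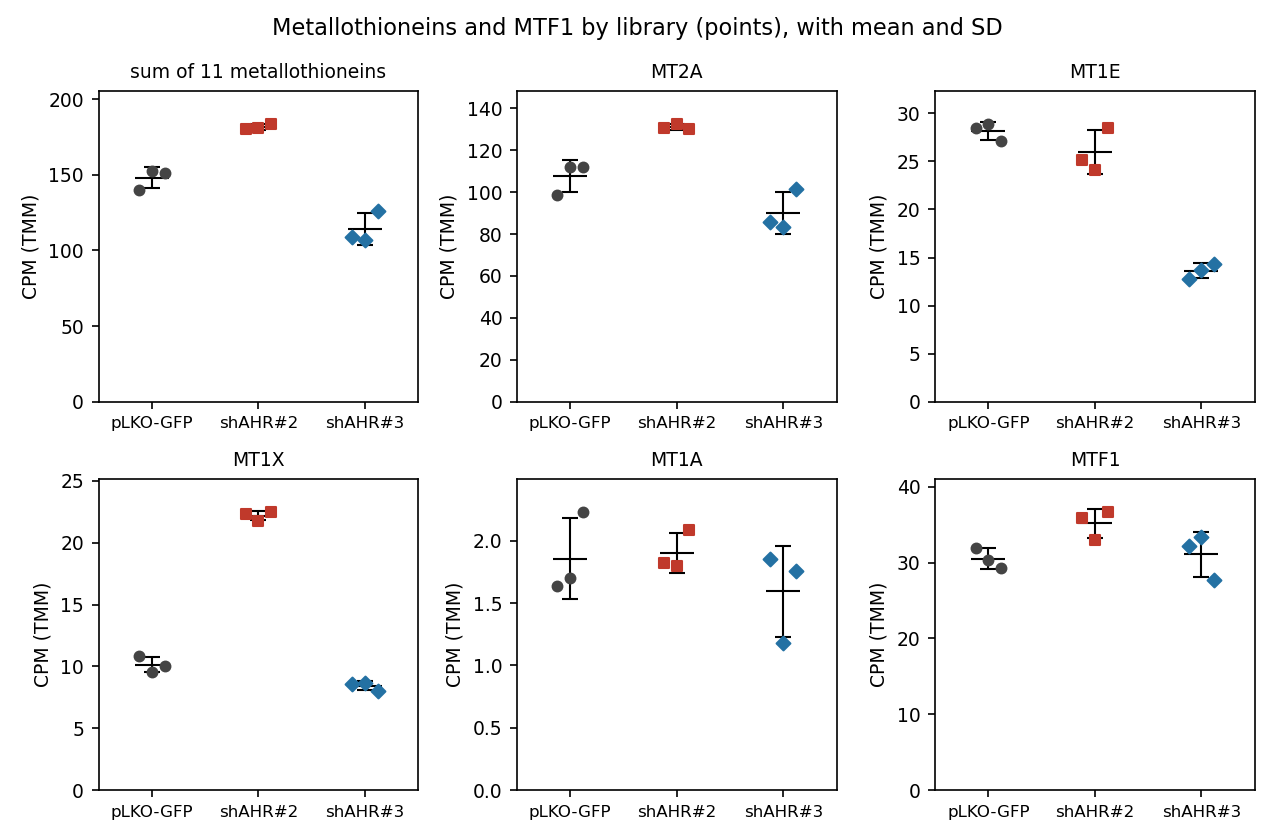
CPM in each library (points) with the group mean and SD (bars, n = 3) for the sum of 11 metallothioneins, for MT2A, MT1E, MT1X and MT1A, and for MTF1. MT1X is at 21.8 to 22.5 CPM under shAHR#2 and at most 10.8 elsewhere, and MT1E is at 12.8 to 14.4 under shAHR#3 and at least 24.1 elsewhere.

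The promoters of MT2A, MT1X and SLC30A1 are shown because these genes are known for their metal response elements and moved in opposite directions with the 2 hairpins. The metal response element core was searched as TGCACNC or TGCGCNC on both strands, and the core bound by AHR with ARNT as GCGTG on both strands, in windows from 250 bases before to 50 after each RefSeq start. The 250 bases before the start are printed from RefSeq (GRCh38.p14), 5′ to 3′ on the gene's strand, with each metal response element core in capitals.
MT2A, chr16:56608334-56608583, plus strand: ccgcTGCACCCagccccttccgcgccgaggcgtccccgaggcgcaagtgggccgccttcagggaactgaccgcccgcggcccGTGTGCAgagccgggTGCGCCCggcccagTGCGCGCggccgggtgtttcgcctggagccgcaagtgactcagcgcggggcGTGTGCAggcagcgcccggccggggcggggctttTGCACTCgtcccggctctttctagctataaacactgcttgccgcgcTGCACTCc
MT1X, chr16:56682220-56682469, plus strand: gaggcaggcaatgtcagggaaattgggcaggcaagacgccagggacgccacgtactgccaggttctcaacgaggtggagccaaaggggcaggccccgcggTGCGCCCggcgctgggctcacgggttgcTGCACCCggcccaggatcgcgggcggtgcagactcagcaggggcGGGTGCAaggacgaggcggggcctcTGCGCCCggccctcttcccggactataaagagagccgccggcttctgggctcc
SLC30A1, chr1:211579162-211579411, minus strand: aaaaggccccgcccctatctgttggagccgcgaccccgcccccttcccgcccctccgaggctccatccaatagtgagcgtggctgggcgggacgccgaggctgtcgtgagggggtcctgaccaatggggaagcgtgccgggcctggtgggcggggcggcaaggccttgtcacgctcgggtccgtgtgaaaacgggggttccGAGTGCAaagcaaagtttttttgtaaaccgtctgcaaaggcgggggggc

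The MT2A window held 8 metal response element cores, 7 of them in the printed stretch, the MT1X window held 4 and the SLC30A1 window 2, 1 of them printed. In MT2A they were spread from position -246 to position 36, counted from the start at 0, and in MT1X they lay between positions -150 and -47. A window was found for 26 of the 36 members, 35 windows in all. A metal response element core was in 17 of these, beside 29.6% of all 35116 windows. All 4 metallothionein windows had it, those of MT1B, MT1H, MT1X and MT2A. No window was found for the tested members MT1E, MT1A, MT1F and SLC30A8. At least 4 cores were in the windows of MT2A, MT1X and MT1H, beside 0.601% of all windows. MT1H had no read in any library although its window held 8 cores, and MT1B, with 3 cores, had at most 4 reads. GCGTG was in 22 of the 35 member windows, beside 36.5% of all windows. MT2A held 3, 2 of which overlapped a metal response element core, MT1X 2 and SLC30A1 3. A match of letters is a description of the window and not a site.

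**Figure D4:**
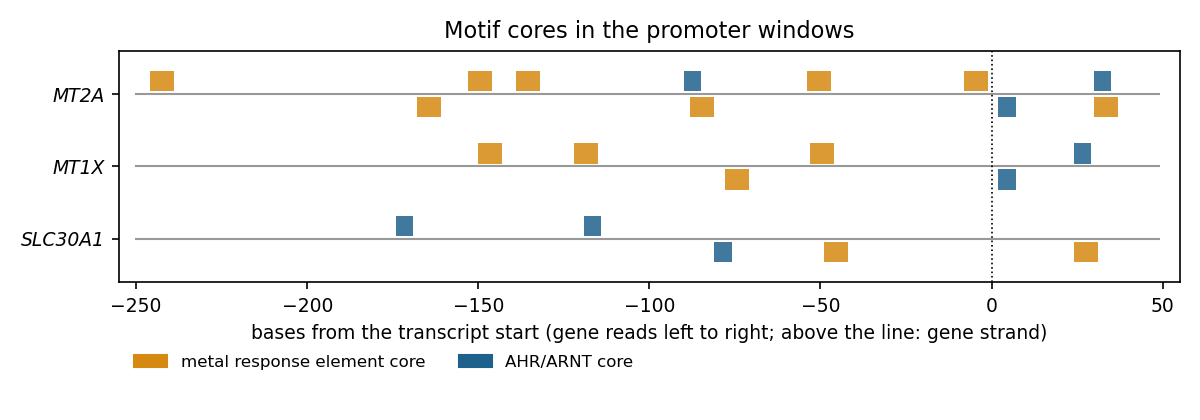
Positions of the metal response element core (orange) and the AHR/ARNT core (blue) in the windows of MT2A, MT1X and SLC30A1, as bases from the transcript start at 0. Boxes above each line are on the gene's strand and boxes below on the other, and MT2A shows 8 orange boxes, MT1X 4 and SLC30A1 2.

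Among the SLC30A exporters, 5 of the 8 tested passed under shAHR#2 (2 higher and 3 lower) and 6 under shAHR#3 (2 higher and 4 lower), with median log2 fold changes of -0.14 and -0.18. These are 62.5% and 75.0% called, beside 65.8% and 54.4% of all genes. SLC30A8 is among the rises with both constructs and had enough reads to be tested only through the shAHR libraries. SLC30A1 (chromosome 1, 211571568 to 211579161), the exporter of the plasma membrane and the highest of the family here, was at 156, 166 and 156 CPM in the control. It fell under shAHR#2 to 129, 129 and 125 CPM and rose under shAHR#3 to 191, 196 and 180, and no 2 of the 3 groups overlapped. The log2 fold changes were -0.32 (standard error 0.04, adjusted p = 5.74e-10) and 0.24 (standard error 0.03, adjusted p = 1.29e-07). The constructs differed by 0.56 (standard error 0.04, adjusted p = 3.89e-16), the largest difference towards shAHR#3 among the members. SLC30A1 therefore changed in the direction opposite to MT2A and MT1X with each construct.

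SLC30A5, SLC30A6 and SLC30A7 load zinc into the early secretory pathway, where SLC30A5 and SLC30A6 work as a pair. SLC30A7 rose under shAHR#2, from 82.5, 81.9 and 78.6 CPM in the control to 121, 123 and 126, a log2 fold change of 0.61 (standard error 0.04, adjusted p = 3.76e-15). With shAHR#3 it was at 91.7, 89.2 and 78.4 CPM and did not pass (0.09, adjusted p = 0.0732), but it did without replicate 3 of that group (0.16, adjusted p = 7.39e-04, range over 15 alternatives 7.39e-04 to 0.379). The constructs differed by -0.51 (adjusted p = 9.88e-13). SLC30A5 fell by 0.21 under shAHR#2 and by 0.20 under shAHR#3 (adjusted p = 4.98e-05 and 1.11e-04). It lies on chromosome 5, whose 656 tested genes had median log2 fold changes of -0.48 and -0.26, and the part of this in its fall was not tested. SLC30A6 was unlike its partner, with 0.04 for shAHR#2 (adjusted p = 0.493) and a fall of 0.15 under shAHR#3 (adjusted p = 0.00435), and the constructs differed by -0.19 (adjusted p = 8.64e-04).

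SLC30A9, a mitochondrial zinc transporter, fell alike with both hairpins. It was at 110, 109 and 107 CPM in the control, 80.2, 76.9 and 75.7 under shAHR#2 and 75.4, 76.6 and 75.5 under shAHR#3, with log2 changes of -0.48 and -0.52 (standard error 0.04 each, adjusted p = 5.18e-14 and 9.14e-15). The difference between the constructs was -0.04 (standard error 0.04) and did not pass (adjusted p = 0.500). SLC30A4, found on endosomes and lysosomes, had -0.07 under shAHR#2 (adjusted p = 0.553) and -0.29 under shAHR#3 (adjusted p = 0.0195). The latter was lost with DESeq2 (-0.29, adjusted p = 0.0502), without pLKO-GFP replicate 3 (-0.27, adjusted p = 0.0612) and without shAHR#3 replicate 3 (-0.18, adjusted p = 0.168), over a range of 0.00365 to 0.168 in 15 alternatives. Its difference between the constructs, -0.21 (adjusted p = 0.114), passed only without shAHR#3 replicate 2 (-0.32, adjusted p = 0.0270, range 0.0270 to 0.483). SLC30A3, the transporter of synaptic vesicles, had 9 to 13 reads in the control, 3 to 5 under shAHR#2 and 2 to 11 under shAHR#3, and passed with neither (adjusted p = 0.0779 and 0.112). Without shAHR#3 replicate 3, the fold change with that construct was -1.81 (adjusted p = 0.0187, range over 14 alternatives 0.0187 to 0.403).

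**Figure D5:**
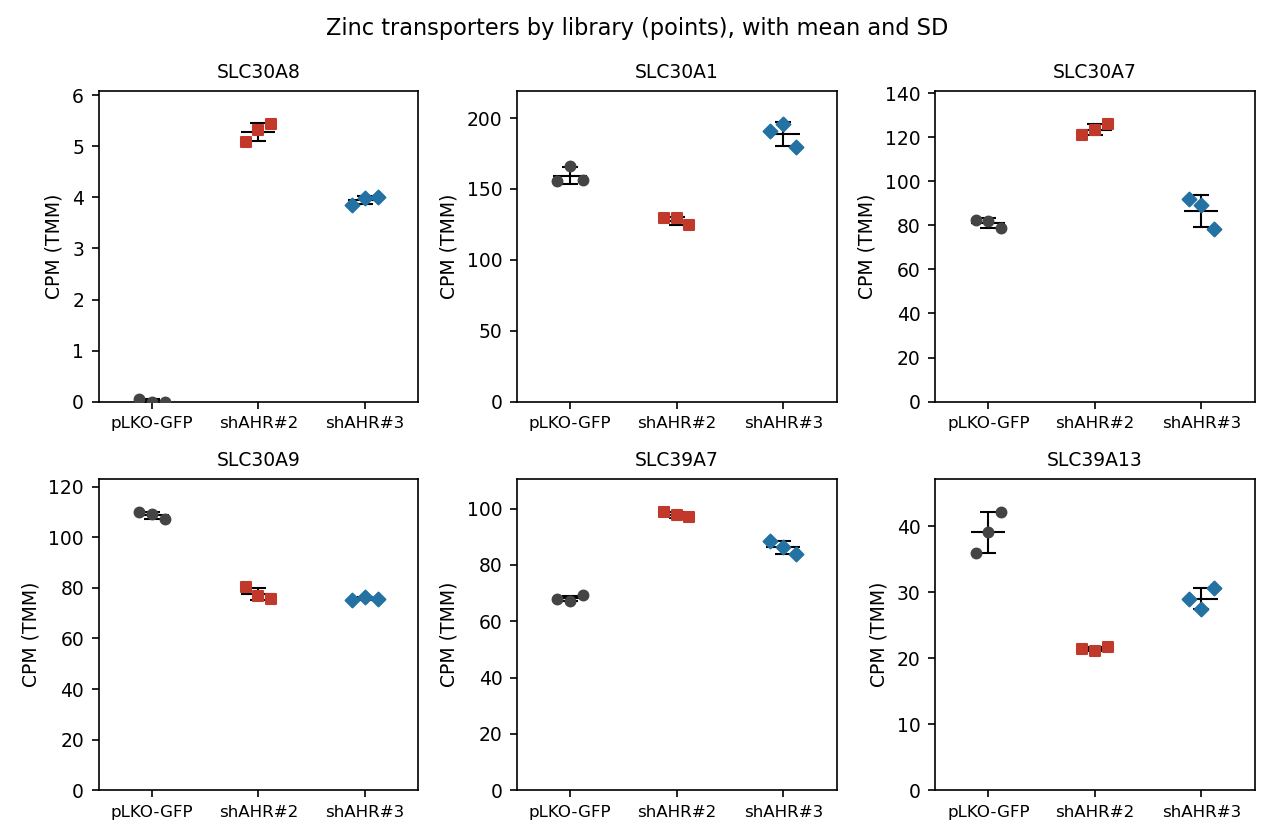
CPM in each library (points) with the group mean and SD (bars, n = 3) for 6 transporters. SLC30A8 is at 0 to 0.0565 CPM in the control and at 3.86 to 5.44 with the hairpins, SLC30A1 and SLC30A7 separate the hairpins from each other, and SLC30A9, SLC39A7 and SLC39A13 lie on the same side of the control with both.

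SLC30A8 (ENSG00000164756.13, chromosome 8, 116950273 to 117176714) is best known as the zinc transporter of insulin granules in pancreatic beta cells. It was counted at 1, 0 and 0 reads in the control libraries, 95, 83 and 86 under shAHR#2 and 75, 78 and 82 under shAHR#3, so that no shAHR library came near the control. Over the summed reads, the level was 303 times that of the control under shAHR#2 (95% exact interval 54.0 to 12026) and 227 times under shAHR#3 (40.4 to 9010). The width of these intervals comes from the single control read, and they cover counting error only. The level reached remained low, with 0.842 ± 0.0281 FPKM under shAHR#2 and 0.629 ± 0.0129 under shAHR#3, below SLC30A4 in the same libraries. Between the constructs it was lower under shAHR#3 by 0.42 on the log2 scale (standard error 0.16, adjusted p = 0.0340). This call was lost with DESeq2 (adjusted p = 0.0915), with no filter on low counts (adjusted p = 0.0512) and on leaving out any 1 of the 6 shAHR libraries (log2 difference -0.44 to -0.39), over a range of 0.0214 to 0.0915 in 15 alternatives.

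Most other beta cell genes had few or no reads. INS, IAPP, PDX1, G6PC2, ABCC8 and UCN3 had no read in any library. Of the 10 beta cell markers 2 were tested, and NKX6-1 was higher with both constructs, at log2 changes of 1.13 and 0.68 (adjusted p = 4.74e-05 and 0.0139). MAFA had 4 to 8 reads in the control, 3 to 9 under shAHR#2 and 10 to 15 under shAHR#3, with log2 fold changes of 0.52 (adjusted p = 0.420) and 1.14 (adjusted p = 0.0464). It had enough reads to be tested only through the shAHR libraries, and its call lies close to the threshold. The summed level of the 10 was 1.36 to 2.23 CPM in the control, 3.22 to 4.30 under shAHR#2 and 2.83 to 2.93 under shAHR#3.

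Of the 11 SLC39A importers tested, 7 rose and 2 fell under shAHR#2 (median log2 fold change 0.15), and 5 rose and 2 fell under shAHR#3 (median 0.12). Among all genes, 32.6% were higher and 33.2% lower under shAHR#2, and 26.9% and 27.5% under shAHR#3, and the importers were not tested against them. SLC39A7, which releases zinc from the endoplasmic reticulum, had the largest rise with both. It was at 67.9, 67.3 and 69.2 CPM in the control, 98.7, 97.7 and 96.9 under shAHR#2 and 88.5, 86.2 and 83.9 under shAHR#3, and the 3 groups did not overlap. The log2 fold changes were 0.52 and 0.34 (standard error 0.04 each, adjusted p = 1.43e-14 and 1.56e-09), and the constructs differed by -0.18 (adjusted p = 1.25e-04). A stretch of 361 of its 4003 exon bases lies opposite RXRB, and whether the counting used strand is not given in the sources used here.

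SLC39A6 and SLC39A10 are close relatives that pair in the plasma membrane, and SLC39A6, also called LIV-1, is known as an oestrogen-responsive gene of breast cancer. Both rose with both constructs. SLC39A6 went from 97.2 to 103 CPM in the control to 114 to 121 under shAHR#2 and 111 to 116 under shAHR#3, log2 changes of 0.26 and 0.20 (adjusted p = 1.42e-07 and 1.42e-05). SLC39A10 rose by 0.17 and 0.10 (adjusted p = 3.47e-05 and 0.00767), and the latter did not pass without pLKO-GFP replicate 3 (0.07, adjusted p = 0.107, range over 15 alternatives 0.00180 to 0.107). Neither differed between the constructs past the threshold (differences of -0.06 with standard error 0.04 and -0.07 with standard error 0.03, adjusted p = 0.216 and 0.116).

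SLC39A14 and SLC39A8 carry zinc, manganese, iron and cadmium. SLC39A14 rose by 0.25 under shAHR#2 and 0.15 under shAHR#3 (standard error 0.03 each, adjusted p = 3.12e-08 and 1.94e-04). Its difference between the constructs of -0.10 (adjusted p = 0.0134) did not pass without shAHR#2 replicate 2 (-0.08, adjusted p = 0.0782) or shAHR#3 replicate 1 (-0.08, adjusted p = 0.0884), over a range of 0.00729 to 0.0884 in 15 alternatives. SLC39A8 moved in opposite directions. It was at 72.4, 73.3 and 72.0 CPM in the control, above that at 81.9, 78.7 and 81.1 under shAHR#2 and below it at 66.8, 67.0 and 65.5 under shAHR#3, log2 changes of 0.15 and -0.13 (standard error 0.04 each, adjusted p = 0.00103 and 0.00689). The constructs differed by -0.28 (standard error 0.04, adjusted p = 3.27e-07).

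SLC39A13, a transporter of intracellular vesicles known for its role in connective tissue, had the largest fall among the importers. It was at 36.0, 39.1 and 42.1 CPM in the control, 21.4, 21.1 and 21.7 under shAHR#2 and 29.0, 27.4 and 30.6 under shAHR#3, with no overlap of groups. The log2 fold changes were -0.87 (standard error 0.07, adjusted p = 6.75e-14) and -0.43 (standard error 0.06, adjusted p = 3.94e-07), and shAHR#3 was 0.44 above shAHR#2 (standard error 0.07, adjusted p = 2.73e-06). SLC39A9, of the secretory pathway, rose by 0.10 and 0.16 (adjusted p = 0.00584 and 3.48e-05). SLC39A3 fell by 0.26 under shAHR#2 (adjusted p = 0.0120), which was lost without pLKO-GFP replicate 3 (-0.22, adjusted p = 0.0637, range over 15 alternatives 0.00837 to 0.0637), and was at -0.10 under shAHR#3 (adjusted p = 0.331). SLC39A11 was higher by 0.27 under shAHR#2 (adjusted p = 0.0312), although its libraries overlapped those of the control. That call was lost with DESeq2 (0.28, adjusted p = 0.0595) and without pLKO-GFP replicate 1 (0.19, adjusted p = 0.179), shAHR#2 replicate 1 (0.29, adjusted p = 0.0549) or shAHR#2 replicate 3 (0.17, adjusted p = 0.227), over a range of 0.00734 to 0.227 in 15 alternatives.

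SLC39A1 and SLC39A4 passed with neither construct. SLC39A1, a plasma membrane importer, was at 4.11 to 5.52 CPM in all libraries, with log2 changes of -0.07 and 0.13 (adjusted p = 0.723 and 0.461). Another annotated gene on the same strand shares 2061 of its 3388 exon bases, and the effect of this on its count was not tested. SLC39A4, the importer of the intestine, had 30 to 67 reads, with -0.40 for shAHR#2 (adjusted p = 0.0949) and -0.38 for shAHR#3 (adjusted p = 0.116). It passed under shAHR#2 without pLKO-GFP replicate 2 (-0.55, adjusted p = 0.0301) or shAHR#2 replicate 1 (-0.56, adjusted p = 0.0471), over a range of 0.0301 to 0.291 in 14 alternatives. With shAHR#3 it passed without pLKO-GFP replicate 2 (-0.53, adjusted p = 0.0385), over a range of 0.0385 to 0.347 in 14 alternatives.

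Other genes of zinc handling came from a list of 20 symbols, of which 18 were in the table and 13 were tested. With shAHR#2, 8 passed as higher and 1 as lower, with a median log2 fold change of 0.47, and under shAHR#3 7 passed as higher and 2 as lower (median 0.16). In all, 69.2% were called with each construct, beside 65.8% and 54.4% of all genes. TMEM163, a vesicle zinc transporter related to the SLC30A family, had 247 to 253 reads in the control, 1069 to 1350 under shAHR#2 and 897 to 952 under shAHR#3, log2 changes of 2.42 and 1.84 (adjusted p = 5.56e-29 and 2.42e-24). ALPL, an alkaline phosphatase that needs zinc, had no control read and 15, 17 and 17 reads under shAHR#3, at least 5.25-fold higher when each control library is set at 3 counts. With shAHR#2 it had 2 to 4 reads, at the level of that limit. ALPL had enough reads to be tested only through the shAHR#3 libraries, and it counts among the 8 and the 7 called as higher. CA12, a zinc-dependent carbonic anhydrase of the cell surface, moved apart, with -0.57 for shAHR#2 and 0.39 for shAHR#3 (adjusted p = 5.40e-14 and 1.21e-10), a difference of 0.97 between the constructs (adjusted p = 2.03e-20). CBWD2 was at -0.29 (adjusted p = 0.0845) and fell by 0.47 under shAHR#3 (adjusted p = 0.00607). MT3 and MT4, the metallothioneins of brain and stratified epithelium, had no read.

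Copper and iron genes moved both ways, as all genes did. Of 17 tested, 7 were higher and 6 lower under shAHR#2 (median -0.13), and 4 were higher and 7 lower under shAHR#3 (median -0.09). The shares called were 76.5% and 64.7%, beside 65.8% and 54.4% of all genes. The copper-exporting ATPases moved apart from each other, with ATP7B higher by 0.67 and 0.69 (adjusted p = 1.28e-04 and 8.63e-05) and ATP7A lower, with -0.52 and -0.38 (adjusted p = 3.69e-07 and 5.53e-05). TFRC, the transferrin receptor, rose by 0.55 and 0.35 (adjusted p = 5.95e-21 and 7.23e-15). NCOA4, which delivers ferritin to lysosomes, had -0.66 and -0.35 (adjusted p = 7.28e-21 and 5.70e-13).

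Genes known to rise with cadmium, zinc excess or damaged proteins did not move as a block. Of 9 tested, 4 were higher and 4 lower under shAHR#2 (median 0.06), and 4 were higher and 2 lower under shAHR#3 (median 0.01). The shares called were 88.9% and 66.7%, beside 65.8% and 54.4% of all genes. All genes also split about evenly, with 32.6% higher and 33.2% lower under shAHR#2, and 26.9% and 27.5% under shAHR#3. HMOX1, the haem-degrading enzyme, rose by 0.77 and 0.49 (adjusted p = 1.02e-08 and 5.41e-05), and GCLM, a subunit of the enzyme that starts glutathione synthesis, by 0.46 and 0.09 (adjusted p = 4.15e-13 and 0.0402). SRXN1 fell under shAHR#2 (-1.11, adjusted p = 1.17e-04) and did not pass under shAHR#3 (-0.37, adjusted p = 0.136). TXNRD1, thioredoxin reductase, fell by 0.21 and 0.26 (adjusted p = 4.67e-09 and 3.39e-11).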

How the data were processed

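Poly(A) RNA of 9 MDA-MB-231 libraries was sequenced from a single end after stranded library preparation. The authors used STAR with GRCh38.p13 and deposited raw integer counts for each gene. The submitters' processing notes also name featureCounts and Subread. Annotation release and use of strand are not given in the sources used here, so counts of overlapping and near-identical genes are uncertain.

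Genes were kept by filterByExpr (minimum count 10, minimum total 15), which left 14274 of 60649, and scaled by TMM. The quasi-likelihood test of edgeR 4.0.16 (R 4.3.3) was fitted once to all 9 libraries with 1 mean for each group, no block, and p-values were adjusted over all genes tested (Benjamini-Hochberg, threshold 0.05). The study used DESeq2, here (1.42.0) an alternative. A standard error is the absolute log2 change over the square root of F. Common variation between replicates beyond counting error was 2.96%. Replicates differed by more than sampling noise (chi-square over its degrees of freedom, 1.75 to 4.15). The fit was tested on simulated counts. Positions and exon lengths are from GENCODE 44, which held 60507 of the identifiers.

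The members and lists were chosen with earlier results of these data known. Members given with values were SLC30A8, MT2A, MTF1, the 3 highest per length of each role, up to 4 called rises and falls per role and construct, and the 4 largest differences between constructs each way. The few other tested members are given briefly. From each list up to 2 rises and 2 falls were named. Alternatives were DESeq2, its size factors, no filter, a minimum mean of 50 counts, fits restricted to the pair of groups, a block for replicate number, omission of each library, and an added log2 fold change of 1.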

Additional observations from a re-analysis of the deposited data

Results flagged for a closer look

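For 12 members the effects of the 2 hairpins differed by edgeR's direct test of shAHR#3 against shAHR#2. These are 48.0% of the 25 tested members, near the 42.3% of all genes that differed. The values are log2 differences, and those below 0 were lower under shAHR#3. In the metallothionein group they were -1.40 for MT1X, -0.93 for MT1E, -0.54 for MT2A and -0.18 for the sensor MTF1. Among exporters they were 0.56 for SLC30A1, -0.51 for SLC30A7, -0.42 for SLC30A8 and -0.19 for SLC30A6. Among importers they were 0.44 for SLC39A13, -0.28 for SLC39A8, -0.18 for SLC39A7 and -0.10 for SLC39A14. The calls of SLC30A8, MTF1 and SLC39A14 were lost under some alternatives, as given above. AHR itself was higher under shAHR#3 than under shAHR#2 by 0.19 (adjusted p = 0.00283). Of its targets, CYP1B1 differed by 2.21 (adjusted p = 3.96e-31) and CYP1A1 by 1.24 (adjusted p = 7.25e-04), both higher under shAHR#3. TIPARP, another target, went the other way, with a difference of -0.22 (adjusted p = 2.11e-05). Against the control CYP1B1 was at -2.65 under shAHR#2 (adjusted p = 3.52e-35) and -0.44 under shAHR#3 (adjusted p = 5.78e-14). CYP1A1 was at -2.47 (adjusted p = 1.02e-10) and -1.23 (adjusted p = 4.39e-06), so both were lower than the control with both hairpins. TIPARP was at 0.04 under shAHR#2 (adjusted p = 0.344) and -0.18 under shAHR#3 (adjusted p = 2.45e-04). The part of these in the differences between the hairpins was not tested.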

How the results depend on the processing

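The number of members called stayed within 1.5 times of the reported one under every alternative except the added log2 fold change of at least 1. That left 2 higher and 0 lower under shAHR#2, 1 higher and 1 lower under shAHR#3, and 0 higher and 1 lower for shAHR#3 against shAHR#2. Leaving out 1 library gave 11 to 12 higher and 4 to 6 lower under shAHR#2, 6 to 8 higher and 8 to 10 lower under shAHR#3, and 2 higher and 8 to 10 lower between the constructs. For single genes no called direction reversed, 24 values lost their call and 9 gained one. The other 1042, called or not, stayed on the same side of the threshold. The changes of SLC30A8 against pLKO-GFP were left out of this tally. The summed metallothionein log2 ratio was 0.23 under shAHR#2 on library totals in place of TMM, and -0.76 under shAHR#3 without MT2A. Libraries of different groups were also correlated after each gene's group mean was subtracted from its log CPM. On these remainders, same-numbered replicates correlated weakly (0.003 to 0.06 over 9 pairs, median 0.03), beside a median of -0.02 over the 18 other pairs. The subtraction ties the 2 sets of pairs together, so they are not independent. Of 18 best matches, 15 were to the own number. A weak pairing by number is therefore possible, and the main fit took no account of it. With the replicate block the counts were 12 and 5, 7 and 9, and 2 and 10, and 9406, 7844 and 6107 genes passed over the whole table, beside 9390, 7771 and 6031 without it. The block changed no call of a member. Depth limits genes with few reads, such as MT1F, SLC30A3 and the control level of SLC30A8.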

Other observations

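The tested genes within 500 kb of SLC30A8 moved far less than SLC30A8 itself. AARD, the nearest of them, had 13 to 15 reads in the control, 17 to 21 under shAHR#2 and 18 to 27 under shAHR#3, log2 fold changes of 0.66 and 0.70 that did not pass (adjusted p = 0.0804 and 0.0630 by edgeR). MED30 rose by 0.50 and 0.53 (adjusted p = 2.91e-06 and 1.17e-06). RAD21 was at 0.005 (adjusted p = 0.875) and 0.11 (adjusted p = 3.13e-04), UTP23 at 0.11 (adjusted p = 0.0702) and 0.13 (adjusted p = 0.0400), and EIF3H at -0.16 (adjusted p = 1.24e-05) and 0.02 (adjusted p = 0.526).

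Genes of iron handling, named here after their values were seen, did not all move alike. SLC11A2, which brings iron and other metals into the cytosol, rose by 0.88 and 0.50 (adjusted p = 2.94e-20 and 9.88e-13), as did IREB2, an iron-regulated RNA-binding protein, by 0.41 and 0.27 (adjusted p = 1.42e-12 and 4.91e-08). The ferritin subunits fell, FTH1 by 0.30 and 0.09 (adjusted p = 2.91e-13 and 0.00118) and FTL by 0.45 and 0.17 (adjusted p = 4.09e-17 and 1.36e-06). SLC25A37, a mitochondrial iron importer, fell by 0.26 and 0.14 (adjusted p = 7.70e-08 and 6.24e-04). ACO1 rose by 0.09 under shAHR#2 (adjusted p = 0.00663) and was at 0.03 under shAHR#3 (adjusted p = 0.317), STEAP3 rose by 0.11 (adjusted p = 0.0436) and was at -0.06 (adjusted p = 0.239), and SLC40A1, the iron exporter, passed with neither (-0.03 and -0.18, adjusted p = 0.890 and 0.420).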
